A study of Mus musculus with 7 samples.

Results

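Ion channels set whether an islet cell fires action potentials, and 33 channel genes of mouse islet cells are described here across cell types. They were chosen by name, as pore subunits, auxiliary subunits and channel-interacting proteins of excitability, and all 33 were among the 23465 genes in the tables. A test across all genes kept 31 of them, while *Kcnd3* and *Cacna1e* had too few molecules. The genes cover ATP-sensitive, background, voltage-gated and calcium-activated potassium channels, voltage-gated calcium and sodium channels, a hyperpolarisation-activated channel, TRPM channels and a chloride transporter.

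In beta cells, glucose metabolism raises ATP, which closes ATP-sensitive potassium channels. The membrane then depolarises, voltage-gated sodium and calcium channels open, and the entering calcium triggers the release of hormone, while other potassium channels end each action potential. Alpha, delta and PP cells, which release glucagon, somatostatin and pancreatic polypeptide, are also electrically excitable.

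The values come from islets of female C57BL/6 mice aged 10 weeks, dissociated to single cells, captured in droplets by a modified 5' assay in which dNTP was added and extension times were lengthened, and read as full-length cDNA on a Nanopore sequencer. Insulin cDNA had been depleted with Cas9 guides. The series also holds a short-read 3' group and long-read 3' and standard 5' groups, which were not analysed here. Replicate 1 held 4814 kept cells and 11012364 UMIs (unique molecular identifiers, each counting 1 captured molecule), with a median of 2110 UMIs per cell. Replicate 2 held 1093 kept cells and 12092393 UMIs, with a median of 9949. The 2 libraries shared 5 barcodes among kept cells. Nothing in the labels says that they came from separate animals. The fit removes the shift between libraries that all types share, so the p-values rest on the spread that remains, which may be technical.

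Cells carried the type that the authors gave to their gene-count clusters. Delta cells numbered 965 and 318 in replicates 1 and 2, PP cells 283 and 41, alpha cells 961 and 239, and beta cells 2284 and 435. Endothelial cells numbered 141 and 26 and stellate cells 118 and 27. Macrophages, 62 and 7 cells, were too few to test. The summed markers of each endocrine type were highest in that type. Beta cells had *Iapp*, which codes for a peptide released with insulin, at 118545 and 99038 CPM (UMIs of the gene per 1000000 UMIs of that cell type or cluster in that library), in replicates 1 and 2, and *Ins2*, an insulin gene, still had 7925 and 6084 CPM there. The delta class was mixed: its cluster 3 was led by delta markers, cluster 8 held *Iapp* at 83953 and 67521 CPM beside *Sst*, the somatostatin gene, cluster 12, of 45 and 41 cells, held *Gcg*, the glucagon gene, at 147578 and 92116 CPM, and cluster 16, of 7 and 7 cells, was led by nerve genes and had *Sst* at 0 and 39.3 CPM. *Ghrl*, which codes for ghrelin, stood at 309 and 0.233 CPM in the delta class. Cluster 15, with 12 of the 141 and 16 of the 26 cells of the endothelial class, carried duct markers. In that class the summed duct markers stood at 515 and 3456 CPM and the summed endothelial markers at 8405 and 1749. Values of the endothelial class thus come from a different mix of cells in each replicate. Cluster 5 of the beta class was also mixed, with *Ppy*, the pancreatic polypeptide gene, at 6924 and 16715 CPM and *Sst* at 1745 and 3165. The other beta clusters had *Ppy* between 135 and 1220 CPM. Because the clustering used the genes that are then compared, the tests are circular in part.

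**Figure D1:**
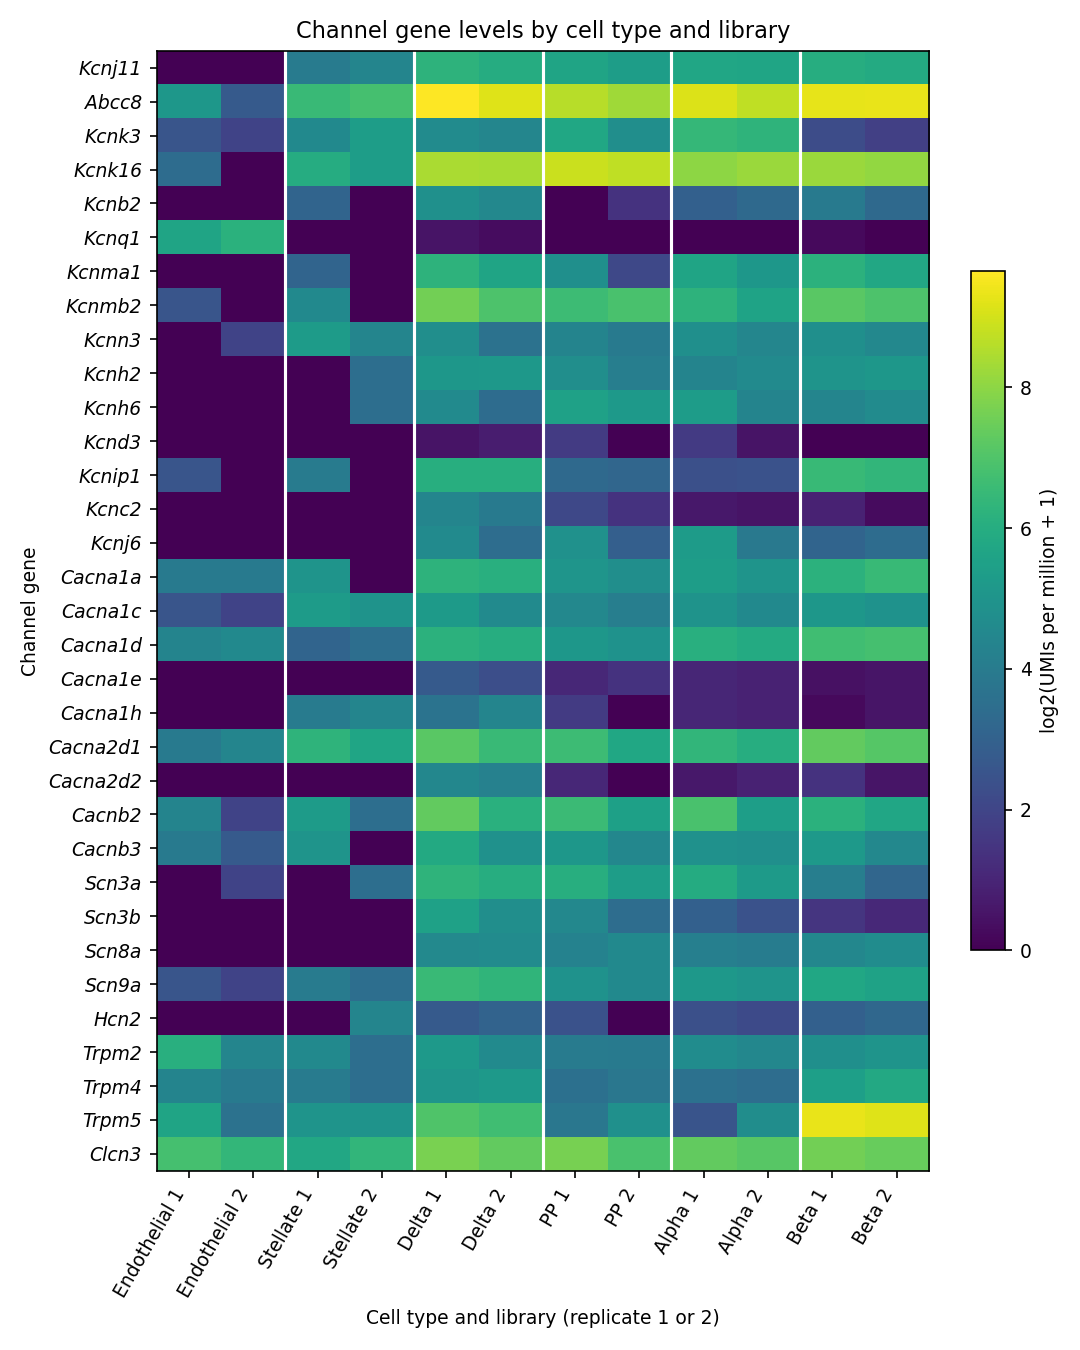
Level of each of the 33 channel genes, as log2(CPM + 1), in each cell type and library. Rows are genes ordered by role and columns are replicates 1 and 2 of each type; *Abcc8* and *Kcnk16* were high in all 4 endocrine types, *Trpm5* in beta cells, and *Kcnq1* in the endothelial class.

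Levels are given for replicate 1 and then replicate 2. A few hormone transcripts take a large share of alpha and PP totals, and the fitted log2 fold changes include TMM scaling, which removes a shift of the median gene of -0.39 between alpha and beta cells and of -0.42 between PP and beta cells. Fold changes are therefore relative to the median gene and can differ in sign from unscaled levels when the difference is small. A member was called at an adjusted p under 0.05 in edgeR's quasi-likelihood test over 13265 genes.

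Between alpha and beta cells, 5 of the 31 members tested were higher and 6 lower in alpha cells, where 9.13% of all genes tested were called higher and 9.91% lower. In delta cells 9 members were higher and 2 lower than in beta cells, against 8.78% and 5.01% of all genes. *Kcnc2* and *Cacna2d2*, counted as higher in delta cells here and against alpha cells, entered the test only through their delta sums. In PP cells 6 were higher and 7 lower than in beta cells, against 8.89% and 8.43%. Delta cells set against alpha cells gave 10 higher and 2 lower, against 6.99% and 3.56% of all genes, and PP cells set against alpha cells gave 4 lower and 0 higher, against 2.17% and 2.83%. In that last comparison 7 members had an unadjusted p under 0.05, DESeq2 called 1 higher and 2 lower, and the fit without the duct-marker cluster 15 called 3 higher and 4 lower, while the calls over all genes were 1373 in that fit and 664 with the cluster. The median log2 fold change of the members was close to 0 in each of these comparisons, from -0.13 in PP over beta to 0.19 in delta over alpha, where the medians of all genes were -0.03 and 0.01. The comparisons share samples, so their calls are not independent of each other.

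**Figure D2:**
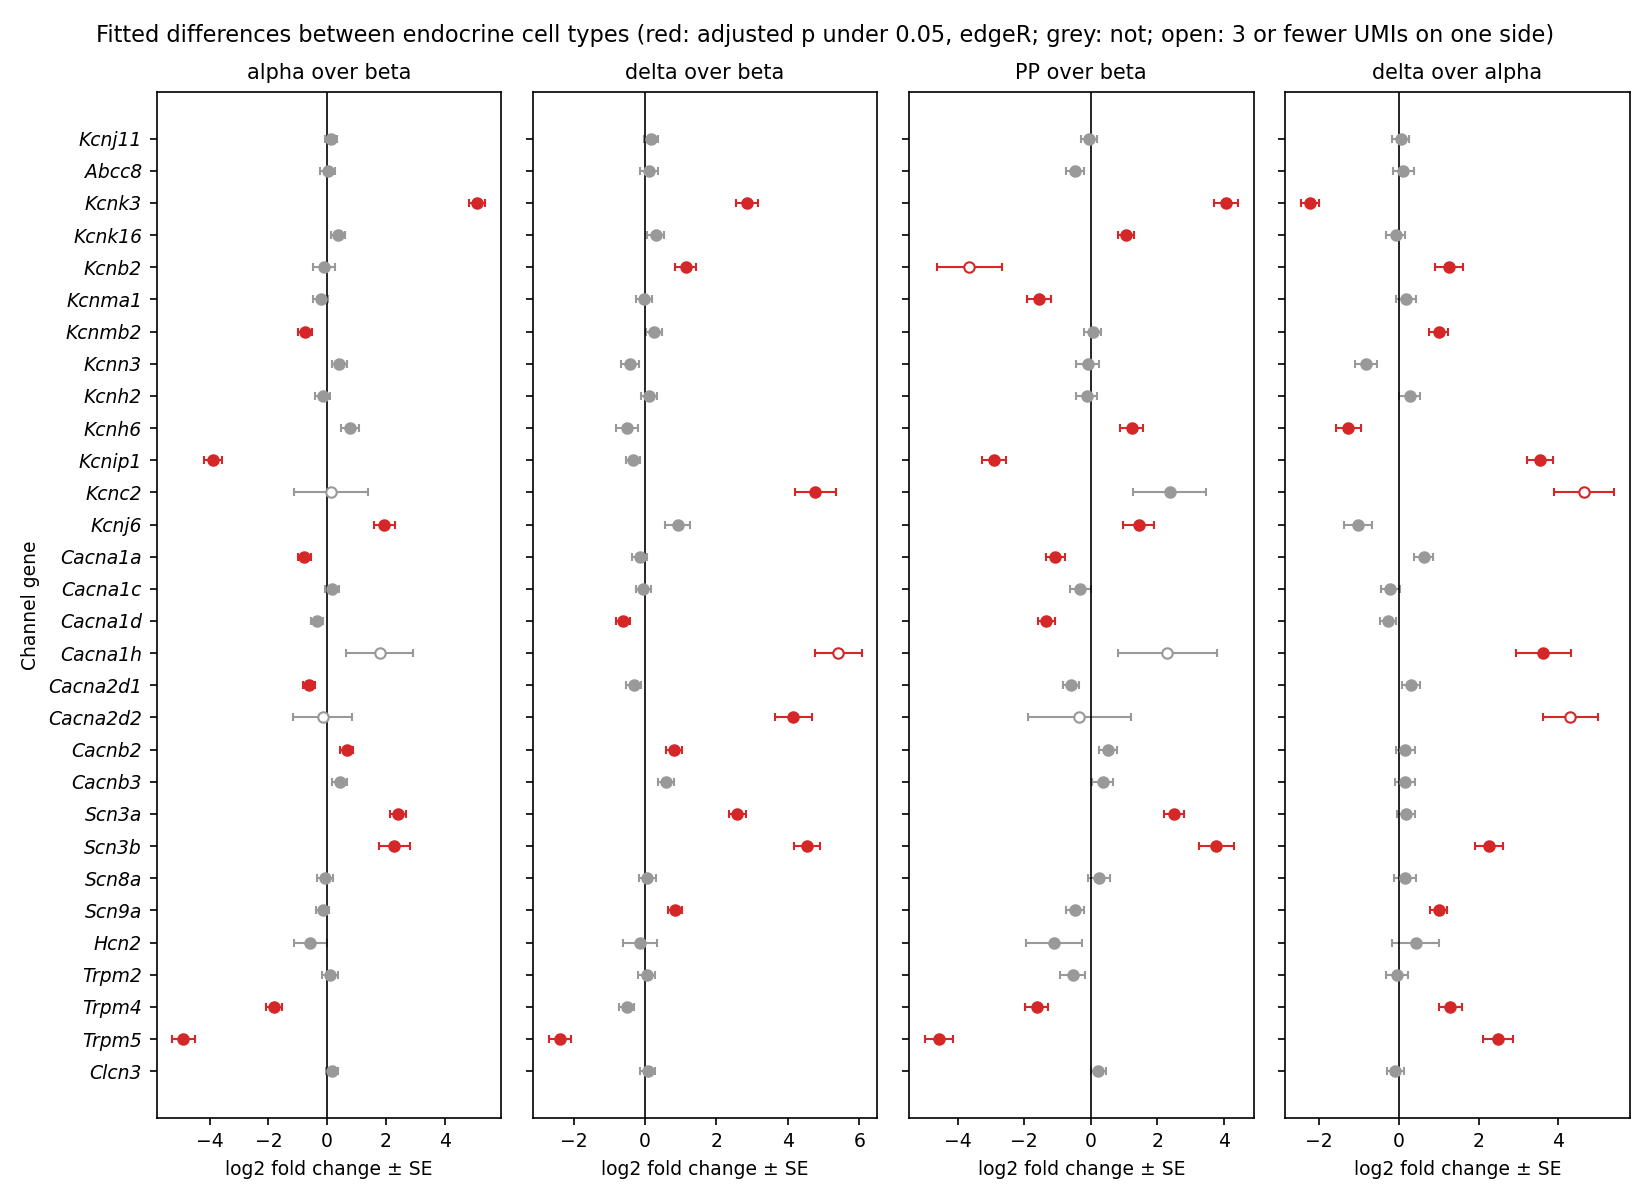
Fitted log2 fold change with its SE for 30 channel genes in 4 comparisons of endocrine types (*Kcnq1*, at 3 UMIs or fewer in each of these types, is left out). Red marks an adjusted p under 0.05; open symbols mark genes with 3 or fewer UMIs on 1 side, whose fitted values depend on the prior count; *Kcnk3*, *Scn3a* and *Scn3b* lie right of 0 in alpha, delta and PP over beta, and *Trpm5* lies left of 0.

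The ATP-sensitive channel is built of the pore subunit Kir6.2, from *Kcnj11*, and the sulfonylurea receptor SUR1, from *Abcc8*, which lie next to each other on chromosome 7. *Kcnj11* had 74.5 and 61.5 CPM in delta cells, 48.1 and 40.9 in PP cells, 50.7 and 49.9 in alpha cells, and 63.2 and 59.5 in beta cells. *Abcc8* had 803 and 585 in delta cells, 396 and 312 in PP cells, 560.3 and 420.9 in alpha cells, and 634 and 651 in beta cells. Neither gene was called in any comparison between endocrine types, with the largest fitted difference in *Abcc8* of PP over alpha cells (log2 fold change -0.48 ± 0.26 (SE), adjusted p = 0.309, edgeR). A difference of that size could not be told from 0 with these libraries.

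Among background potassium channels, which hold the resting potential, *Kcnk3* (TASK-1, ENSMUSG00000049265.7, chr5:30588170-30625271) set the endocrine types apart. Its level was 85.3 and 75.7 CPM in alpha cells, against 3.67 and 2.51 in beta cells. PP cells had 52.5 and 26.2, and delta cells had 23.9 and 20.5. Every alpha, PP and delta value lay above both beta values. Within the delta class the *Gcg*-rich cluster 12 had 75.4 and 48.8 CPM and held 23.6% and 42.0% of the *Kcnk3* UMIs, and the delta-marker cluster 3 had 16.6 and 11.5. Alpha cells exceeded beta cells by a log2 fold change of 5.09 ± 0.28 (SE, adjusted p = 8.12e-14, edgeR), PP cells by 4.07 ± 0.35 (adjusted p = 8.76e-10) and delta cells by 2.87 ± 0.31 (adjusted p = 5.00e-08). In a refit with own-marker clusters, which kept only cluster 3 of the delta class and left out cluster 5 of the beta class, the delta value was 2.86 (adjusted p = 2.72e-05). Delta cells were also below alpha cells (-2.23 ± 0.23, adjusted p = 3.35e-08, edgeR). PP cells were called below alpha cells too (-1.02 ± 0.26, adjusted p = 0.0217), a call that was not kept under every refit. Within the beta class *Kcnk3* had 0.781 and 0.450 in cluster 0 and 9.63 and 9.17 in the mixed cluster 5, which held *Ppy*. Exons of the antisense gene *Gm9899* overlap *Kcnk3*, and whether counting used strand is not stated.

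*Kcnk16* codes for TALK-1, a pancreatic background potassium channel (ENSMUSG00000023387.8, chr14:20261376-20269199, minus strand). It stood at 468 and 422 CPM in PP cells, 345 and 335 in delta cells, 259 and 292 in alpha cells, and 293 and 274 in beta cells. PP cells were highest in both libraries, with a log2 fold change over beta cells of 1.05 ± 0.24 (SE, adjusted p = 0.00242, edgeR). That call was lost without the replicate block (adjusted p = 0.109). In the mixed beta cluster 5, which held *Ppy*, its level was 468 and 460, near that of PP cells. In the other 3 beta clusters it lay between 215 and 277.

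Nearly every *Kcnk16* molecule was assigned to a transcript, 100% of its gene UMIs in replicate 1 and 100.3% in replicate 2. Kcnk16-201 has 5 exons and 876 coding bases. Kcnk16-202 shares its middle 3 exons, starts 1783 bases further downstream at an exon of 81 bases, and has 486 annotated coding bases that begin in exon 3. The last exon also differs, with 218 bases in Kcnk16-201 and 1598 in Kcnk16-202. The stretch below is what Kcnk16-202 lacks: the coding part of the first exon of Kcnk16-201 (GRCm38, chr14:20268950-20269162, minus strand, 213 bases, GENCODE M21), with the start codon in capitals. The second stretch is the promoter window that RefSeq gives for the gene (GRCm38.p6, chr14:20269220-20269519, minus strand, 250 bases before the start and 50 after it), which lies at Kcnk16-201 and not at Kcnk16-202.
Kcnk16-201 first coding exon: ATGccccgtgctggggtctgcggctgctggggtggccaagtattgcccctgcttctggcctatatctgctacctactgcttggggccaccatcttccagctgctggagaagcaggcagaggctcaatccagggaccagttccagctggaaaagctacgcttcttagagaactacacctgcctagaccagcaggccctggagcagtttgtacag
Kcnk16 promoter: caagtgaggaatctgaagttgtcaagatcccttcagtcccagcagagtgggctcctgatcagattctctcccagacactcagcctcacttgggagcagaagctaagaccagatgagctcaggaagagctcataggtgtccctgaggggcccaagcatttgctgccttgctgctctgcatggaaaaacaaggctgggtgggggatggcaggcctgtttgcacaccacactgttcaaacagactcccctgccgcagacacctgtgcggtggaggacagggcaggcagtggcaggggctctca

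Most *Kcnk16* molecules in every endocrine type were assigned to Kcnk16-202, whose annotation lacks that coding exon. Its share in replicate 1 was 74.1% in delta cells, 74.8% in PP cells, 72.4% in alpha cells and 76.0% in beta cells. In replicate 2 it was 84.3% in delta cells, 84.7% in PP cells, 84.8% in alpha cells and 82.5% in beta cells. The types lay within a few points of each other in each library, and the 2 libraries lay further apart than the types did. The 95% exact binomial intervals of beta cells were 73.8 to 78.1% in replicate 1 and 80.2 to 84.6% in replicate 2, which cover counting error only. The annotated transcripts differ at both ends, and where each molecule began was not examined. These shares therefore do not show how many molecules lacked the coding exon.

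**Figure D3:**
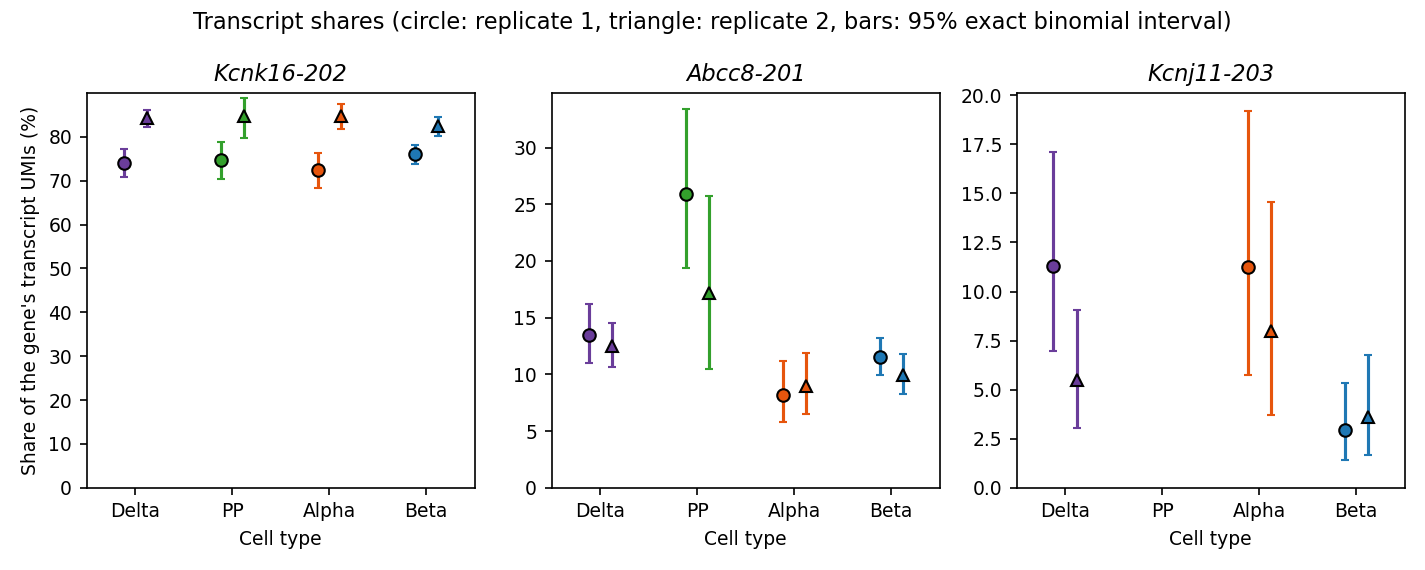
Share of the gene's transcript UMIs (percent) held by 3 transcripts in delta, PP, alpha and beta cells; circles are replicate 1, triangles replicate 2 and bars 95% exact binomial intervals, shown where the gene had at least 50 UMIs. Kcnk16-202 lies between 72.4% and 84.8% in all 4 types, Abcc8-201 is highest in PP cells, and Kcnj11-203 is lowest in beta cells.

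The G protein-gated inward rectifier subunit *Kcnj6* (GIRK2) had 38.2 and 14 CPM in alpha cells, against 7.53 and 9.57 in beta cells. Alpha cells were above beta cells (log2 fold change 1.94 ± 0.35 (SE), adjusted p = 0.000168, edgeR), although DESeq2 gave an adjusted p of 0.0608. PP cells had 28.4 and 6.54, which overlapped the beta values, and their call (1.44 ± 0.47, adjusted p = 0.0365) was lost with DESeq2 (adjusted p = 0.327). The log2 fold change of PP over beta cells was 2.33 in replicate 1 alone and close to 0 in replicate 2 alone. Delta cells had 23.5 and 10.0 and were not called against beta cells (0.91 ± 0.35, adjusted p = 0.0946).

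Of the voltage-gated potassium channel genes, *Kcnc2*, which codes for the fast Kv3.2 channel of rapidly firing neurons, stood out in delta cells. It had 20.03 and 14.7 CPM in delta cells, 3.28 and 1.64 in PP cells, 0.523 and 0.438 in alpha cells, and 0.919 and 0.228 in beta cells. The delta values lay above those of every other type. Delta cells exceeded beta cells by a log2 fold change of 4.77 ± 0.58 (SE, adjusted p = 6.24e-07, edgeR). Only the delta sums were high enough to bring the gene through the filter on low counts. This p-value is therefore no independent support for the delta level. Alpha cells held 2 *Kcnc2* UMIs, so the ratio of delta to alpha cells, 34.7, has a wide 95% counting interval of 9.38 to 290.

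*Kcnip1*, a calcium-binding KChIP subunit that joins Kv4 channels, separated beta and delta cells from alpha and PP cells. Its level was 65.3 and 65.7 CPM in delta cells, 8.75 and 8.18 in PP cells, 4.19 and 4.38 in alpha cells, and 90.4 and 80.7 in beta cells. The alpha values were 4.63% and 5.42% of the beta values, where *Iapp* in alpha cells was 1.96% and 6.81% of its beta level. The fitted log2 fold change was -3.88 ± 0.32 (SE, adjusted p = 1.11e-10, edgeR) for alpha over beta cells and -2.92 ± 0.36 (adjusted p = 6.15e-07) for PP over beta cells. Delta cells were higher than alpha cells by 3.54 ± 0.32 (adjusted p = 3.88e-09) and by 3.90 (adjusted p = 4.07e-08) in the own-marker refit. The Kv4 pore subunit among the members, *Kcnd3*, had 4 UMIs in delta cells, 2 in PP cells, 5 in alpha cells and 0 in beta cells over both libraries, which is under the filter.

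The *Kcnip1* molecules were assigned to transcripts whose annotated starts lie far apart. Kcnip1-205, annotated as a processed transcript, begins at position 33993152 of chromosome 11 and Kcnip1-202, a coding transcript, at 33843461, 149691 bases downstream. Both are shown with their nearest RefSeq promoter windows (GRCm38.p6, minus strand, chr11:33993144-33993443 and chr11:33843637-33843936). Capitals mark GGGCGG or its reverse complement CCGCCC, the GC box letters.
Kcnip1 upstream start: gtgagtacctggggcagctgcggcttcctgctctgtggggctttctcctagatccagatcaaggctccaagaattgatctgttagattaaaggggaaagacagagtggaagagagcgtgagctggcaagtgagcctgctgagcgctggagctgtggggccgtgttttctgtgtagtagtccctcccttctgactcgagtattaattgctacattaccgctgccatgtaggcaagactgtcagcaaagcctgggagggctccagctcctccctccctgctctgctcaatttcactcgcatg
Kcnip1 downstream start: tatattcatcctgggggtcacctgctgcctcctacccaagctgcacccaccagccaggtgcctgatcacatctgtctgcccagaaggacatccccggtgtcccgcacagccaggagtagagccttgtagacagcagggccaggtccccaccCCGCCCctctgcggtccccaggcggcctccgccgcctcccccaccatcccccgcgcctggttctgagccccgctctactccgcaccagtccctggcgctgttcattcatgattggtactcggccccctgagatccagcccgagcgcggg
In beta cells Kcnip1-205 held 67 of 116 and 44 of 73 transcript UMIs of the gene, 57.8% and 60.3%, and Kcnip1-202 held 33.6% and 35.6%. Delta cells held 31 and 29 UMIs of Kcnip1-205 and 11 and 17 of Kcnip1-202. Molecules assigned to each of these transcripts were thus found in beta and in delta cells, while where the molecules themselves began was not examined. Only 25.7% and 19.7% of the gene's UMIs were assigned to any transcript.

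Other repolarising potassium channels differed less. *Kcnb2*, which codes for the delayed rectifier Kv2.2, had 27.9 and 21.9 CPM in delta cells, against 14.1 and 8.89 in beta cells and 6.80 and 8.75 in alpha cells. Delta cells lay above both in each library, with log2 fold changes of 1.14 ± 0.29 (SE) over beta and 1.26 ± 0.36 over alpha cells (adjusted p = 0.00722 and 0.0194, edgeR). DESeq2 gave 0.112 and 0.131 for these. PP cells held 1 *Kcnb2* UMI over both libraries and beta cells 116, a level 18.0-fold lower in PP cells with a 95% counting interval of 3.17 to 717 (adjusted p = 0.00875, edgeR), which DESeq2 did not call (adjusted p = 0.0612).

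The large-conductance calcium-activated channel has its pore from *Kcnma1* and an inactivating subunit from *Kcnmb2*. *Kcnma1* had 27.3 and 3.27 CPM in PP cells, 48.7 and 33.3 in alpha cells, and 72.4 and 54.7 in beta cells. It was lower in PP than in beta cells (log2 fold change -1.56 ± 0.35 (SE), adjusted p = 0.00198, edgeR) and than in alpha cells (-1.34 ± 0.37, adjusted p = 0.0319). Both calls were lost without the replicate block (adjusted p = 0.102 and 0.319). PP over beta cells was -0.97 in replicate 1 alone and -3.34 in replicate 2 alone, where PP cells held 2 UMIs, and PP over alpha cells was -0.85 and -3.03. *Kcnmb2* had 195 and 123 in delta cells, 96.2 and 116 in PP cells, 73.8 and 46.8 in alpha cells, and 145 and 123 in beta cells. Alpha cells were lowest, by -0.75 ± 0.24 against beta cells (adjusted p = 0.0255), a call lost with DESeq2 (adjusted p = 0.0992), while delta cells exceeded alpha cells by 1.00 ± 0.24 (adjusted p = 0.00504), which the fit without the replicate block did not call (adjusted p = 0.216).

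*Kcnh2* and *Kcnh6* code for ERG-type voltage-gated potassium channels. *Kcnh6* stood at 44.8 and 36.0 CPM in PP cells, while beta cells had 20.03 and 24.4 (log2 fold change 1.23 ± 0.34 (SE), adjusted p = 0.0120, edgeR), and 23.5 and 9.78 in delta cells, against 39.8 and 19.3 in alpha cells (-1.27 ± 0.32, adjusted p = 0.00759). Each was lost with DESeq2 (adjusted p = 0.126 and 0.179), and the delta and alpha values overlapped between libraries. *Kcnh2*, between 16.4 and 34.0 in the 4 endocrine types, and the small-conductance calcium-activated channel gene *Kcnn3*, between 11.4 and 27.2, were not called between endocrine types. The closest was *Kcnn3* in delta over alpha cells (-0.82 ± 0.28, adjusted p = 0.0562).

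Calcium channel pores divided into genes found in every endocrine type and genes that, among endocrine types, were found mainly in delta cells. *Cacna1d* (the L-type channel Cav1.3) had 72.3 and 63.1 CPM in delta cells, 33.9 and 29.4 in PP cells, 66.4 and 59.1 in alpha cells, and 103 and 109 in beta cells. PP cells were lowest and beta cells highest in both libraries. The log2 fold change was -1.33 ± 0.25 (SE, adjusted p = 0.000343, edgeR) for PP over beta cells, -0.99 ± 0.27 (adjusted p = 0.0284) for PP over alpha cells and -0.62 ± 0.19 (adjusted p = 0.0293) for delta over beta cells. The delta call was lost without the nerve-like cluster (adjusted p = 0.0731), and the call of PP over alpha cells without the replicate block (adjusted p = 0.137). Exons of *Chdh* overlap *Cacna1d* on the other strand.

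*Cacna1a* (the P/Q-type channel Cav2.1) was also lowest in PP cells in both libraries, with 31.7 and 26.2 CPM there, 40.3 and 31.1 in alpha cells, 75.3 and 67.8 in delta cells, and 73.1 and 89.1 in beta cells. Unlike for *Cacna1d*, delta and beta values overlapped and delta cells were not called against beta cells (log2 fold change -0.14 ± 0.21 (SE), adjusted p = 0.774, edgeR). *Cacna1a* was lower in PP than in beta cells (-1.07 ± 0.29, adjusted p = 0.0101) and lower in alpha than in beta cells (-0.77 ± 0.23, adjusted p = 0.0191). The PP call was lost without the replicate block (adjusted p = 0.0761) and the alpha call with DESeq2 (adjusted p = 0.121). *Cacna1c*, which codes for the other islet L-type channel Cav1.2, lay between 16.4 and 37.0 in the 4 types and was not called between them.

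*Cacna1h*, which codes for the low-threshold T-type channel Cav3.2, had 11.8 and 19.8 CPM in delta cells, 2.19 and 0 in PP cells, 1.05 and 0.875 in alpha cells, and 0.184 and 0.456 in beta cells. The delta values lay above those of the other endocrine types. Stellate cells had 15.4 and 20.2, from 2 and 2 UMIs. Delta cells held 112 *Cacna1h* UMIs and beta cells 3, a ratio of 55.7 with a 95% counting interval of 18.6 to 274. Against alpha cells the log2 fold change was 3.63 ± 0.68 (SE, adjusted p = 0.000392, edgeR). Exons of *Tpsg1* overlap *Cacna1h* on the other strand. Of the 21 and 42 *Cacna1h* UMIs assigned to a transcript, 100% and 97.6% went to transcripts not annotated as protein coding. *Cacna1e* (the R-type channel Cav2.3) had 30 UMIs in delta cells, but 13 of them came from the 14 cells of the nerve-like cluster 16, and it was not tested.

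Auxiliary alpha-2-delta subunits carry calcium channels to the membrane. *Cacna2d2* had 21.3 and 17.9 CPM in delta cells, 1.09 and 0 in PP cells, 0.523 and 0.875 in alpha cells, and 1.65 and 0.456 in beta cells. Delta cells exceeded beta cells by a log2 fold change of 4.15 ± 0.52 (SE, adjusted p = 1.03e-06, edgeR), and the ratio of 126 UMIs in delta to 3 in alpha cells was 26.7 (95% counting interval 8.94 to 131). As with *Kcnc2*, only the delta sums brought *Cacna2d2* through the filter, so this p-value is no independent support. *Cacna2d1* had the other pattern, with 81.6 and 63.0 in alpha cells, against 159 and 138 in beta cells (-0.63 ± 0.21, adjusted p = 0.0379), a call lost with DESeq2 (adjusted p = 0.0550). Delta cells, with 145 and 92.2, were not called against beta cells (-0.32 ± 0.20, adjusted p = 0.375). So among the alpha-2-delta members *Cacna2d2* was found mainly in delta cells, at a level below that of *Cacna2d1* there, and *Cacna2d1* was found in all endocrine types. Exons of *Gm17141* overlap *Cacna2d2* on the other strand.

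Of the cytoplasmic beta subunits, *Cacnb2* was called higher in alpha cells (116 and 42.0 CPM) than in beta cells (70.4 and 51.5), at a log2 fold change of 0.66 ± 0.23 (SE, adjusted p = 0.0463, edgeR). The values overlapped, and the call was lost without TMM scaling (adjusted p = 0.514). Delta cells had 159 and 68.2 (0.82 ± 0.22 over beta cells, adjusted p = 0.0105), which DESeq2 did not call (adjusted p = 0.208). *Cacnb3* was between 21.3 and 57.5 in the 4 types and was not called.

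Voltage-gated sodium channels carry the upstroke of the action potential. *Scn3a*, which codes for the pore Nav1.3, had 77.1 and 63.1 CPM in delta cells, 64.5 and 40.9 in PP cells, 60.7 and 37.2 in alpha cells, and 16.4 and 8.21 in beta cells. Beta cells were lowest in both libraries, and no other value overlapped theirs. The log2 fold changes over beta cells were 2.59 ± 0.24 (SE) in delta, 2.51 ± 0.30 in PP and 2.41 ± 0.26 in alpha cells (adjusted p = 3.77e-09, 2.86e-07 and 2.44e-08, edgeR).

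*Scn3b* codes for an auxiliary sodium channel subunit that changes channel gating. It had 44.4 and 26.3 CPM in delta cells, 21.9 and 9.81 in PP cells, 6.80 and 4.38 in alpha cells, and 1.84 and 1.14 in beta cells. The order was the same in both libraries, and no 2 neighbours overlapped. PP over alpha cells was not called (log2 fold change 1.49 ± 0.47 (SE), adjusted p = 0.0638, edgeR), and delta cells were not tested against PP cells. Delta cells exceeded beta cells by 4.54 ± 0.36 on the log2 scale (SE, adjusted p = 2.83e-10, edgeR) and alpha cells by 2.26 ± 0.35 (adjusted p = 3.48e-05). PP cells exceeded beta cells by 3.78 ± 0.51 (adjusted p = 4.24e-06), and alpha cells exceeded beta cells by 2.29 ± 0.51 (adjusted p = 0.00161), a call lost with the authors' transcript clusters (adjusted p = 0.0584).

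*Scn9a*, which codes for Nav1.7, had 92.7 and 78.7 CPM in delta cells, 29.5 and 22.9 in PP cells, 34.5 and 31.1 in alpha cells, and 52.2 and 45.8 in beta cells. Delta cells were higher than beta cells by a log2 fold change of 0.84 ± 0.19 (SE, adjusted p = 0.00186, edgeR) and than alpha cells by 1.00 ± 0.21 (adjusted p = 0.00121). The 7 and 7 cells of the nerve-like cluster held 10.3% and 20.4% of the class's *Scn9a* UMIs, at 260 and 247 CPM, against 96.9 and 75.2 in the delta-marker cluster 3. Without the nerve-like cluster the delta log2 fold changes were 0.69 over beta cells (adjusted p = 0.0123) and 0.85 over alpha cells (adjusted p = 0.0068). With the authors' transcript clusters the value over beta cells was 0.47 and was not called (adjusted p = 0.114). *Scn8a* (Nav1.6) lay between 15.8 and 24.8 in the 4 types and was not called between them.

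**Figure D4:**
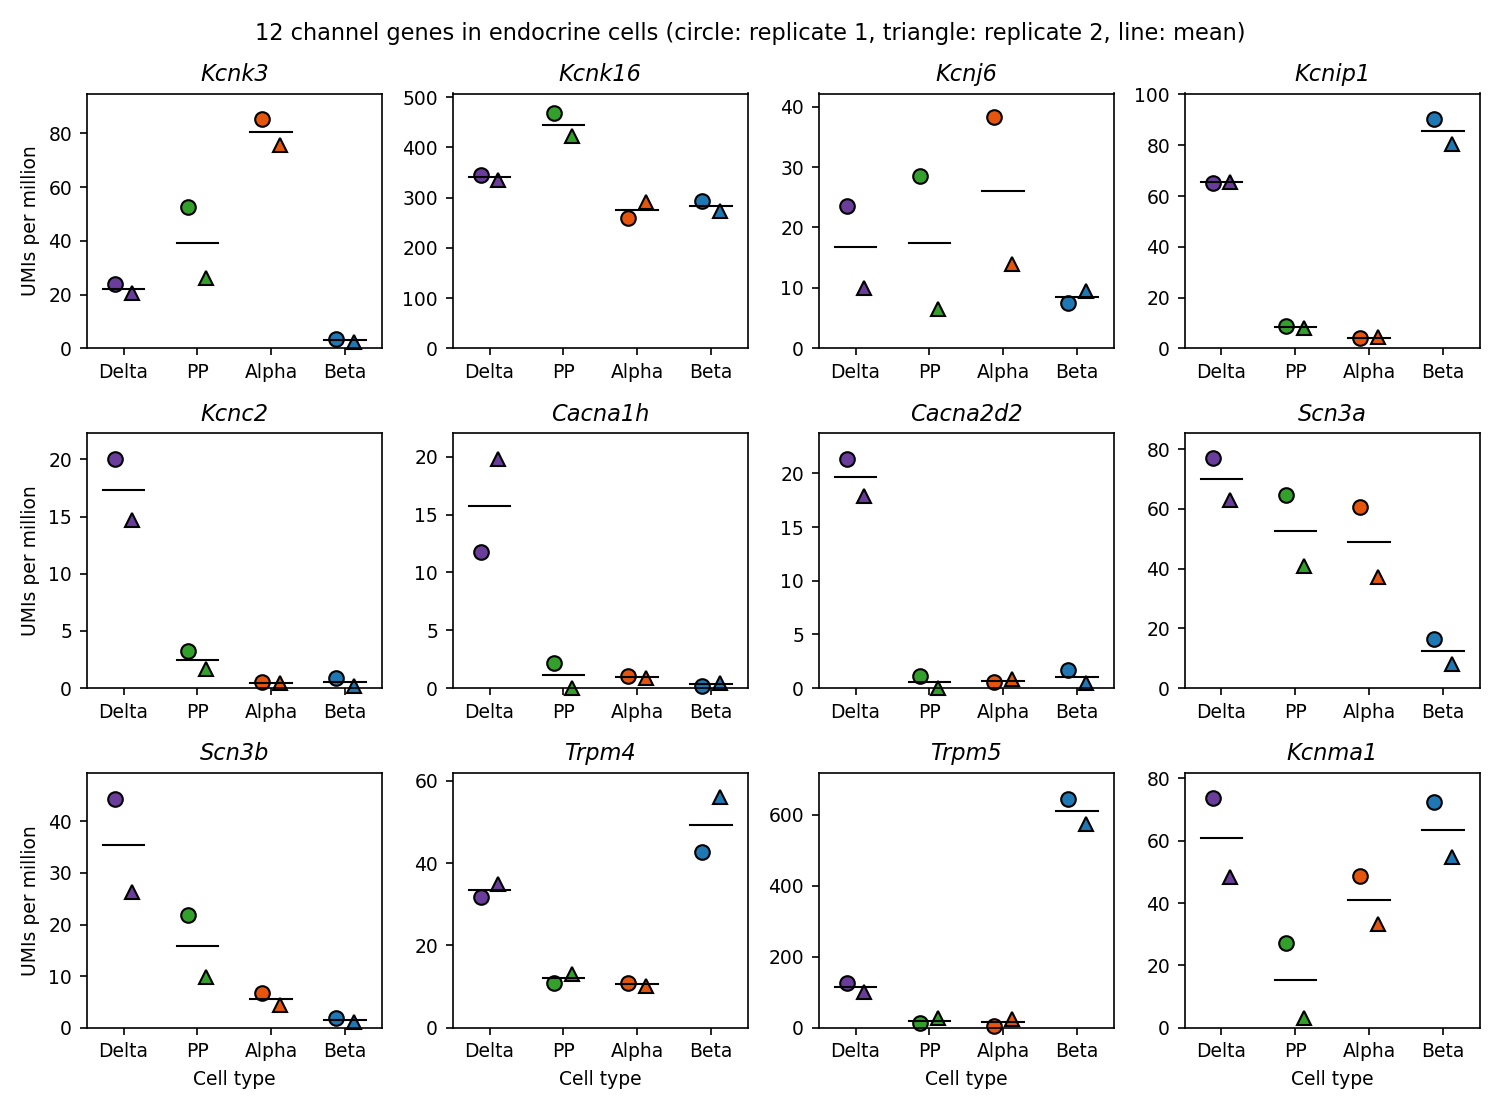
Level of 12 channel genes in CPM (linear axes from 0) in delta, PP, alpha and beta cells; circles are replicate 1, triangles replicate 2 and lines their mean. *Kcnc2*, *Cacna1h* and *Cacna2d2* are high in delta cells in both libraries, *Scn3a* and *Kcnk3* are lowest in beta cells, and *Trpm5* is highest in beta cells at 645 and 574.

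The hyperpolarisation-activated channel gene *Hcn2* was low, at 3.5 to 8.43 CPM in delta, alpha and beta cells and 4.37 and 0 in PP cells, and was not called. The oxidant-activated channel gene *Trpm2* lay between 14.7 and 35.3 in the 4 types and was not called either.

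*Trpm4* and *Trpm5* code for cation channels that calcium opens and that depolarise the cell; *Trpm5* is best known from taste cells and beta cells. *Trpm4* had 31.8 and 34.9 CPM in delta cells, 10.9 and 13.1 in PP cells, 11 and 10.1 in alpha cells, and 42.6 and 56.1 in beta cells. Alpha and PP cells lay below beta and delta cells without overlap. The log2 fold changes were -1.81 ± 0.27 (SE) for alpha and -1.63 ± 0.34 for PP over beta cells (adjusted p = 6.00e-06 and 0.000931, edgeR), and delta cells exceeded alpha cells by 1.29 ± 0.28 (adjusted p = 0.00169).

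*Trpm5* (ENSMUSG00000009246.14, chr7:143069153-143094642, minus strand) was highest in beta cells. It had 127 and 101 CPM in delta cells, 13.1 and 27.8 in PP cells, 4.71 and 25.8 in alpha cells, and 645 and 574 in beta cells. Beta cells were far above the others in both libraries. The log2 fold change was -4.89 ± 0.38 (SE, adjusted p = 4.80e-11, edgeR) for alpha, -4.57 ± 0.42 (adjusted p = 2.27e-09) for PP and -2.39 ± 0.31 (adjusted p = 1.24e-06) for delta over beta cells. In alpha cells *Trpm5* was 0.730% and 4.5% of its beta level and in PP cells 2.03% and 4.85%, where *Iapp* stood at 1.96% and 6.81% in alpha cells and 5.03% and 9.59% in PP cells. The part of free RNA or of mixed cells in the alpha and PP levels was not tested. A single alpha cell of replicate 2 held 10 of the 59 alpha UMIs. Exons of *Tssc4* overlap the gene on the other strand.

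The *Trpm5* molecules of the delta class were not spread evenly. The delta-marker cluster 3 had 18.6 and 35.2 CPM, cluster 8, a cluster rich in *Iapp*, had 294 and 240, and the nerve-like cluster had 0 and 0. Cluster 3 held 44.5% and 38.4% of the UMIs of the class over all genes, but 6.51% and 13.4% of its *Trpm5* UMIs. Cluster 8 held 62.0% and 69.1% of the *Trpm5* UMIs, and cluster 7 held 26.4% and 3.23%. The cycling cluster 14, with *Iapp* at 66470 and 64075 CPM, held 4.79% and 10.8% of them and 2.82% and 4.19% of the UMIs over all genes. The delta class exceeded alpha cells by a log2 fold change of 2.50 ± 0.37 (SE, adjusted p = 1.78e-05, edgeR). Limiting delta cells to cluster 3 in the own-marker refit ended that call (0.59, adjusted p = 0.553). With that limit the delta value against beta cells was -4.51 (adjusted p = 9.56e-09), and that of alpha cells in the same fit was -5.10 (adjusted p = 1.26e-09).

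Other members divided these clusters differently, which is given as a description. In cluster 3 *Kcnc2* had 35.2 and 24.9 CPM, *Cacna1h* had 19.6 and 30.9, and *Cacna2d2* had 26.4 and 20.6. Cluster 8 had 6.49 and 4.00 of *Kcnc2*, 8.11 and 12 of *Cacna1h*, and 21.1 and 19.2 of *Cacna2d2*. *Kcnc2* and *Cacna1h* thus lay higher in cluster 3 than in cluster 8 in both libraries, while *Cacna2d2* differed little in replicate 2. *Kcnk3*, also called higher in delta than in beta cells, had 16.6 and 11.5 in cluster 3 and 29.2 and 14.4 in cluster 8. Limited to own-marker clusters, delta cells were still called higher than beta cells in edgeR for *Kcnc2* (adjusted p = 5.72e-07), *Cacna1h* (8.69e-07), *Cacna2d2* (1.09e-05) and *Scn3b* (1.35e-08). For *Kcnc2* and *Cacna2d2* the limit set by the filter, given above, applies here too. In the nerve-like cluster *Cacna1h* was at 0 in both libraries, *Kcnc2* had 0 and 3 UMIs and *Cacna2d2* 0 and 2.

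**Figure D5:**
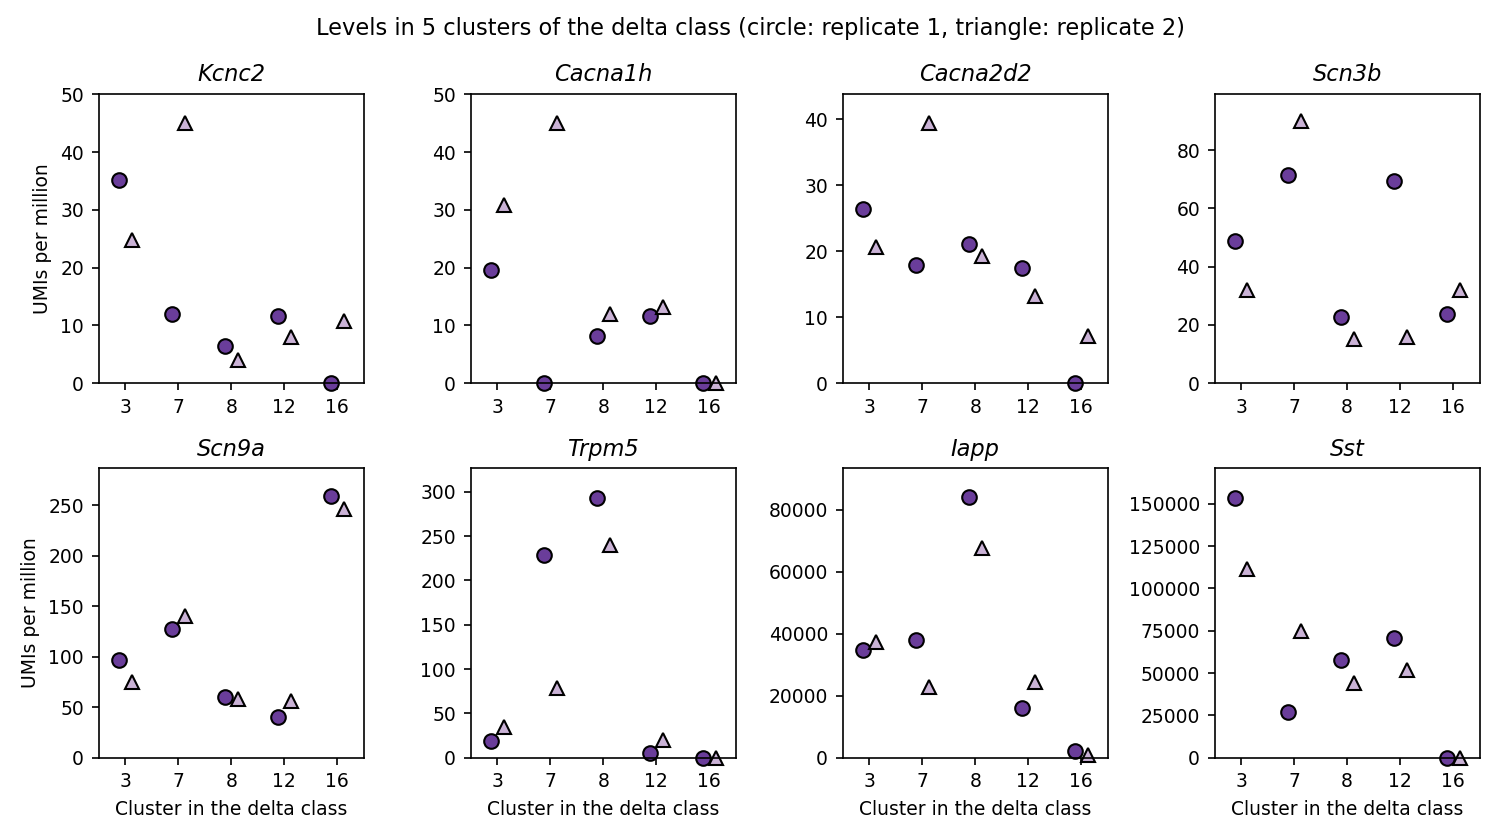
Level of 6 channel genes and of the hormone genes *Iapp* and *Sst*, in CPM, in 5 clusters of the delta class (cycling cluster 14, of 20 and 10 cells, is left out). *Trpm5* and *Iapp* are high in cluster 8, *Scn9a* in the nerve-like cluster 16, and *Kcnc2* and *Sst* are higher in cluster 3 than in cluster 8 in both libraries.

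Promoter windows of a beta-enriched and a delta-enriched member are shown for comparison, *Trpm5* (GRCm38.p6, chr7:143094593-143094892, minus strand) and *Cacna2d2* (chr9:107399630-107399929, plus strand), with GC box letters in capitals.
Trpm5 promoter: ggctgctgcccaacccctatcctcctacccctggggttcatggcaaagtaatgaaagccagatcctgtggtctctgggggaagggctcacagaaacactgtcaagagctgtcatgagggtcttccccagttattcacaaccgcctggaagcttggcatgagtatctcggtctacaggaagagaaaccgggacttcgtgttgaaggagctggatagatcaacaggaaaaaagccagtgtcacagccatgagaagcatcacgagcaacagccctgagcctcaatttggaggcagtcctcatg
Cacna2d2 promoter: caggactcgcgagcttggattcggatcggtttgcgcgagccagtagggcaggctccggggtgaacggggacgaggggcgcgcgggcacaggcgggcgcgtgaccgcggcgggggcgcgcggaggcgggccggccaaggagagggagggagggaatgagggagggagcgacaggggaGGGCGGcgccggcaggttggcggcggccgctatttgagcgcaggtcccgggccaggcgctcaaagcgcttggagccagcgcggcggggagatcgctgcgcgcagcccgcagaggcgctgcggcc
RefSeq gave 36 such windows of 300 bases for 23 of the 33 members. On either strand, GGGCGG was found in 16 of the 36, among them *Cacna2d2* but not *Trpm5*, and in 35.7% of all 32851 windows. TATAAA was found in 2 of the 36 and in 13.6% of all windows. TAATTA, the core letters of homeodomain sites, was found in 0 of the 36 and in 5.29% of all windows. None of the 3 letter strings contains another.

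The chloride/proton exchanger gene *Clcn3* had 209 and 162 CPM in delta cells, 203 and 118 in PP cells, 160 and 141 in alpha cells, and 193 and 167 in beta cells, and was not called between them.

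Endothelial and stellate cells were set against the 4 endocrine types to describe where the members were found. In replicate 2 most cells of the endothelial class belonged to the duct-marker cluster 15, so its values there are not those of endothelial cells alone. In non-endocrine cells 23 of the 31 members were lower and 0 higher, against 17.1% and 13.6% of all genes tested. The members were picked as islet cell channel genes, and those at 0 UMIs in non-endocrine cells passed the filter on low counts through endocrine sums alone. The direction of this count was thus largely set by the choice of genes, and it is given as a description. At an unadjusted p under 0.05 there were 24, and DESeq2 called 20 lower and 0 higher. The median log2 fold change of the members was -2.86, or -1.95 with the members at 0 UMIs set to their bound, where the median of all genes was -0.25. *Kcnj11* had 0 and 0 CPM in endothelial cells and 15.4 and 20.2 in stellate cells, and *Abcc8* had 33.7 and 5.66 in endothelial cells and 92.2 and 111 in stellate cells, against the endocrine values above. The fitted difference of *Abcc8* was -3.99 ± 0.27 (SE, adjusted p = 1.19e-12, edgeR). Stellate cells held *Iapp* at 6.21% and 5.36% of the beta level and *Abcc8* at 14.6% and 17% of it. *Scn8a*, *Kcnj6* and *Scn3b* had 0 UMIs in non-endocrine cells and were at least 5.68-fold, 3.75-fold and 3.32-fold lower there, with the floor at 3 UMIs over both libraries.

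*Kcnq1*, which codes for a slow delayed rectifier used by epithelia and the heart, was the exception. Endothelial-class cells had 48.1 and 70.8 CPM, from 10 and 25 UMIs, and the 4 endocrine types together had 3 UMIs. Endothelial and stellate cells as 1 group exceeded the endocrine types by a ratio of 327, with a 95% counting interval of 103 to 1661. The duct-marker cluster 15 held 3 and 24 of these UMIs (80.2 and 82.9 CPM) and cluster 11, led by endothelial markers, held 7 and 1 (41.1 and 15.7). Stellate cells were at 0, and the fit gave no usable estimate (adjusted p = 1, edgeR). The long antisense gene *Kcnq1ot1* overlaps exons of *Kcnq1*. *Trpm2*, at 67.4 and 19.8 in the mixed endothelial class and 23.0 and 10.1 in stellate cells, was not called against endocrine cells (-0.14 ± 0.43, adjusted p = 0.859).

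Transcript use was tested for the members with at least 2 transcripts that had enough UMIs. None of 18 members was called in alpha over beta, 0 of 19 in delta over beta, 0 of 16 in PP over beta and 0 of 14 in non-endocrine over endocrine cells, against 0.993%, 0.816%, 0.691% and 1.08% of all genes tested (edgeR's diffSpliceDGE, Simes p per gene). At an unadjusted p under 0.05 there were 3, 3, 2 and 1. The nearest was *Clcn3* in delta over beta cells (gene adjusted p = 0.0671), where Clcn3-202 held 2 of 58 and 13 of 110 UMIs in delta cells, 3.45% and 11.8%, and 0 UMIs in beta cells.

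For the ATP-sensitive channel, Abcc8-206 held 44.5% and 48.0% of the *Abcc8* transcript UMIs in delta, 52.5% and 52.4% in PP, 50.0% and 49.7% in alpha and 51.5% and 47.8% in beta cells. Abcc8-201 had shares of 25.9% and 17.1% in PP cells, while beta cells had 11.5% and 9.92%, and this was not called (adjusted p = 0.456, edgeR). Kcnj11-205 held 88.8% and 92.0% of *Kcnj11* in alpha cells, against 96.5% and 94.8% in beta cells, and Kcnj11-203, with no annotated coding sequence, held 11.2% and 7.96% in alpha cells, against 2.95% and 3.63% in beta cells (adjusted p = 0.492). The shares of the main *Kcnma1* transcripts differed between libraries as well as types: Kcnma1-205 held 41.9% and 61.8% in delta and 48.6% and 62.5% in beta cells, and Kcnma1-215 held 48.6% and 20.6% in delta and 32.6% and 27.8% in beta cells. *Kcnk3*, *Kcnmb2* and *Kcnh6* each had 1 transcript with over 90% of their UMIs where shares could be given.

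How much of a gene reached a transcript differed widely. Over all genes 86.3% and 89.3% of gene UMIs were in the transcript tables, but over the 26 members with at least 100 UMIs in each library the median was 39.3% and 33.3%. It was lowest for *Scn3a*, at 2.27% and 3.10%, with *Trpm5* at 6.72% and 7.12% and *Cacna1d* at 10.2% and 10.3%. *Kcnk16*, *Kcnk3* and *Kcnn3* were above 97% in both libraries. The Spearman correlation with the length of the longest coding transcript was -0.38 and -0.28 across these 26 genes, given as a description. Much of what was assigned went to transcripts not annotated as protein coding: all *Cacna1a* UMIs, 98.9% of *Cacna1d* UMIs in each library and 86.0% and 87.5% of *Trpm5* UMIs. The main *Trpm5* transcripts in beta cells, Trpm5-202 (40.6% and 46.2%) and Trpm5-207 (45.3% and 40.9%), are annotated as retained introns, and Trpm5-201, the coding transcript whose start coincides with the RefSeq start, had 0 UMIs.

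Beyond the members, 119 further channel genes and partners were listed, of which 57 could be tested. In alpha over beta cells 10 were higher and 8 lower, in delta over beta 14 and 3, in PP over beta 7 and 9, in delta over alpha 7 and 4, in PP over alpha 1 and 3, and in non-endocrine over endocrine cells 11 and 12. Of all genes tested, in the same order, 9.13% were higher and 9.91% lower, 8.78% and 5.01%, 8.89% and 8.43%, 6.99% and 3.56%, 2.83% and 2.17%, and 13.6% and 17.1%. *Itpr1*, the inositol trisphosphate receptor that releases stored calcium, had 257 and 155 CPM in delta cells, 115 and 81.8 in PP cells, 296 and 179 in alpha cells, and 66.9 and 47.4 in beta cells, and was called higher in alpha (adjusted p = 5.14e-10, edgeR), delta (1.04e-07) and PP cells (0.000532) than in beta cells. *Cacng4*, a calcium channel gamma-family gene, had 49.7 and 35.0 in alpha cells, against 3.12 and 2.74 in beta cells (adjusted p = 2.14e-11). *Kcnip3*, another KChIP gene, had 6.10 and 3.49 in delta cells, 17.5 and 26.2 in PP cells, 27.2 and 15.3 in alpha cells, and 0.735 and 0.684 in beta cells, which were lowest in both libraries. The background channel gene *Kcnk2* had 44 and 73 UMIs in delta cells and 1 and 1 in beta cells. In non-endocrine cells *Ano1*, a calcium-activated chloride channel gene, had 161 and 70.5 in stellate cells and 4.81 and 45.3 in the mixed endothelial class, with 1 UMI in the endocrine types.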

How the data were processed

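Single-cell cDNA of mouse islets was read on a Nanopore sequencer in 2 libraries of the modified 5' assay, and per the labels the other samples belong to 3 further groups that were not analysed here. The authors deposited UMI count tables per cell for genes and for transcripts, with a table of cell clusters and types. The submitters' processing notes name mm10 and Seurat; the aligner, the counter and the use of strand are not given in the sources used here. Transcript IDs were matched to GENCODE M21 (69626 of 69994, 99.9% of UMIs).

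Cells with a type were kept and their counts summed per library and type, leaving out macrophages (a library with under 20 cells). The 12 sums were fitted with edgeR 4.0.16 (R 4.3.3) by quasi-likelihood, with filterByExpr, TMM and the library as a block (5 residual degrees of freedom), and p-values were adjusted over 13265 genes by Benjamini-Hochberg. The block is paired because same-numbered sums come from the same library: their deviations correlated at 0.179 (median of 15 pairs of types, lowest 0.088). SE is the fold change over the root of F. Transcript use was tested with diffSpliceDGE on transcripts with at least 10 UMIs and a share of at least 5%. Genes with 3 or fewer UMIs on 1 side are given as ratios with 95% exact intervals. Intervals cover counting error only. The code was tested on simulated data.

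Doublets were not called anew. The members, gene lists and tests were chosen with earlier results of these data known. All members were described, and of the other channel genes the 4 with the lowest adjusted p per comparison could be named. Alternatives were no TMM, DESeq2 1.42.0, no filter, no block, each library left out, own-marker clusters, the authors' transcript clusters, no nerve-like cluster and, chosen after seeing the data, no duct-marker cluster.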

Additional observations from a re-analysis of the deposited data

Results flagged for a closer look

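Macrophages were outside every comparison because replicate 2 held 7 of them and replicate 1 held 62. Some members had more UMIs there than the 3 that a count of 0 allows: *Abcc8* had 15, *Clcn3* 14, *Kcnk16* 7, *Trpm5* 7, *Trpm2* 6 and *Cacna1d* 4 over both libraries. In the same cells *Iapp* stood at 12.4% and 3.71% of its beta level, *Abcc8* at 15.9% and 9.91%, and *Trpm5* at 9.93% and 0%. The part of free RNA in these counts was not tested.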

How the results depend on the processing

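No member call changed direction in the 8 refits over both libraries, and no fitted fold change of a call did in 1 library alone. The log2 fold change of *Kcnj6* in PP over beta was only 0.0036 in replicate 2 alone, where the unscaled PP level was the lower. Of 74 calls over the 6 comparisons, 67 were kept without TMM scaling, 73 without the filter, 70 with own-marker clusters, 73 without the nerve-like cluster, 65 with transcript clusters and 73 without the duct-marker cluster; DESeq2 kept 56 of 73. Calls kept under every refit numbered 5 of 11 in alpha over beta, 7 of 11 in delta over beta, 7 of 13 in PP over beta, 8 of 12 in delta over alpha, 0 of 4 in PP over alpha and 19 of 23 in non-endocrine over endocrine cells. DESeq2 called 6 members in alpha over beta, with 1881 calls over all genes against 2525. Without the duct-marker cluster, chosen after seeing the data, PP over alpha had 7, with 1373 calls over all genes against 664. Without TMM the splits were 4 higher and 9 lower in alpha over beta, 4 and 10 in PP over beta, and 12 and 1 in delta over alpha.

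Without the replicate block, which ignores the pairing by library, 54 of the 74 calls were kept, and the counts were 7 in alpha over beta, 8 in PP over beta and 0 in PP over alpha, while calls over all genes were 1281, 1149 and 61, against 2525, 2297 and 664 with it. Leaving out a library leaves 1 sum a type, so it gives fold changes with no test. No member was called for transcript use under any alternative tried. Genes with few UMIs and the 41 PP cells of replicate 2 limit what these depths can show.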
